A study of Arabidopsis thaliana with 9 samples.

Results

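A set of 199 Arabidopsis genes that the array annotation lists only by locus code had a median intensity of 107 in intact cells, and each gene was brighter after mannitol medium and brighter again in wall-less protoplasts. They were the members of 11933 locus-code probe sets, groups of array probes that each read 1 gene and whose annotation symbol is a code of the form AT1G to AT5G, that met the following conditions on group means of log2(intensity + 16). The osmotic mean lay at least 1 above the intact mean, the protoplast mean at least 1 above the osmotic mean, and no array overlapped an array of the neighbouring group, so a step of 1 is a 2-fold difference. The members are 1.67% of the locus-code probe sets, and each belongs to a different gene. Because these same values chose the members, their differences between groups are given as a description, without a test.

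The data are 9 Affymetrix ATH1 arrays of wild-type Arabidopsis thaliana T87, a line of suspended cells grown in light at weekly dilution, with 3 biological replicates in each of 3 groups per the labels. Intact cells came from cultures 4 days old and received nothing further. Osmotic cells of the same age spent 3 h in medium with 0.4 M mannitol. Protoplasts came from cells of the same age whose walls were digested for 1.5 h in 0.35 M mannitol by cellulase Onozuka RS at 1% and by pectolyase Y-23 at 0.5%, and which after washing in 0.4 M mannitol spent 3 h in the same mannitol medium as the osmotic cells. Neither a mock transfer of intact cells nor a digestion without enzymes for osmotic cells is described, so mannitol cannot be told apart from handling in the first step, nor wall loss from enzymes, washing and the longer time in the second. All groups derive from 1 cell line. Arrays of whole cultures also cannot tell more transcript per cell from more cells that carry it.

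Plant cells answer a loss of water with protective proteins, transporters and changed hormone signals, and they watch their walls through receptors at the cell surface that sense tension and released wall fragments. Enzymes that digest walls set free such fragments and can carry microbial molecules of their own, and protoplasts begin to rebuild a wall soon after they are made. Many genes are listed in array annotations by a locus code in place of a name, which gives the chromosome and the order along it. The gene table used here named 198 of the 199 members by locus code and clone only, and no role is given for those. Descriptions from other sources were not used, so a missing role here does not mean that a gene is unstudied. The exception, AT5G52050, is named there DTX50, a detoxification efflux carrier, one of the membrane proteins that move small molecules out of the cytoplasm.

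Across the members, the osmotic step ran from 1.00 to 5.20 with a median of 1.65, and the protoplast step from 1.01 to 5.87 with a median of 2.41, both on the log2 scale. Over all 13513 single-gene probe sets the corresponding medians were 0.01 and -0.14. From intact cells to protoplasts the members differed by 2.16 to 7.92, with a median of 4.30. The protoplast step was the larger of the pair in 145 members and the osmotic step in 54. At least 2 on the log2 scale was reached by 64 members in the osmotic step, by 125 in the protoplast step and by 46 in both. At least 4 was reached by 4 members in the osmotic step and by 31 in the protoplast step. The first step supplied between 16% and 83.0% of a member's whole log2 difference, with a median of 41.8%, and it supplied between 40% and 60% in 91 members. Between the steps of a member there was little relation over the 199 members (Pearson's r = 0.03, Spearman's rho = 0.09), given as a description since both steps share the osmotic arrays and both were bounded by the choice of members.

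**Figure D1:**
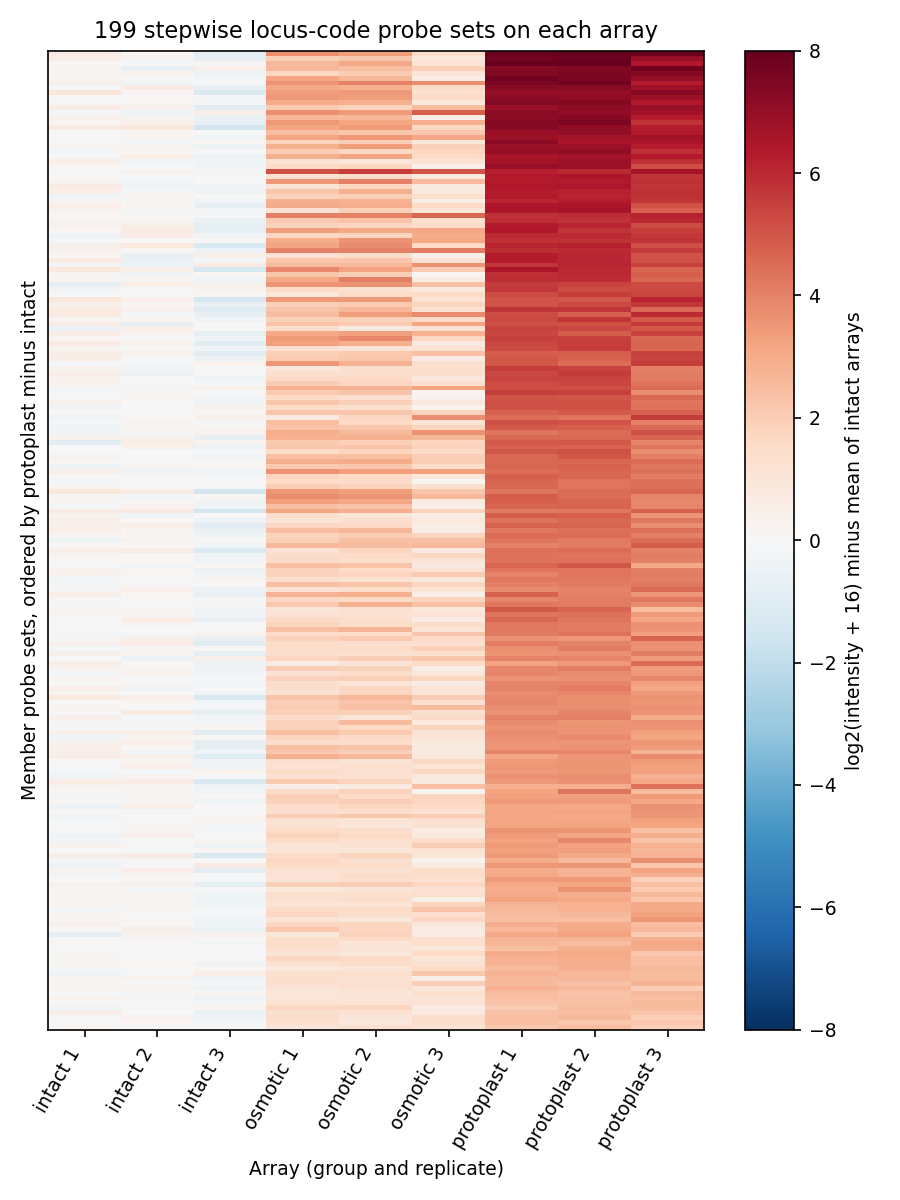
Each row is 1 of the 199 members, each column 1 array, and the colour is log2(intensity + 16) minus the mean of that member's 3 intact arrays, with rows ordered by the protoplast minus intact difference. The colour deepens from the intact to the osmotic to the protoplast columns in every row, as the choice of members requires, and the osmotic replicate 3 column is paler than the other osmotic columns in many rows.

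Of the 8 members whose signal differed most between intact cells and protoplasts, all but AT2G22880 had the larger step between osmotic cells and protoplasts. AT2G47550 read 132, 91.1 and 37.1 on the intact arrays, 1214, 945 and 241 on the osmotic arrays, and 21808, 25149 and 21912 on the protoplast arrays. Its group means were 86.8 ± 47.6, 799.8 ± 502 and 22957 ± 1899 (SD, n = 3), a difference of 7.92 from intact cells to protoplasts on the log2 scale, made of steps of 2.83 and 5.09. The protoplast arrays lay close together and far above the rest, while osmotic replicate 3 lay much nearer the intact arrays than the other osmotic arrays did. AT4G39670 had 57.6, 40.8 and 11.8 in intact cells, 168, 202 and 74.1 in osmotic cells, and 10297, 11416 and 6102 in protoplasts. With steps of 1.65 and 5.87, it had the largest protoplast step of all members with 16 added before the logarithm, though with 64 added its 5.47 came just under the 5.48 of AT5G39580, and again the third array was the lowest in each group. For AT5G39580 the arrays gave 45.9, 56.2 and 29.1, then 167, 227 and 106, then 9859, 10875 and 9353, in the same order of groups. Its steps were 1.58 and 5.83, and its lowest protoplast array was far above its highest osmotic array, by 5.27 on the log2 scale, the widest such gap among the members.

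AT2G43590 gave 63.5, 26.9 and 74.9 in intact cells, 409, 339.8 and 236 in osmotic cells, and 10456, 11628 and 14178 in protoplasts, with steps of 2.31 and 5.16. Here the third protoplast array was the highest of its group. AT5G42830 gave 37.1, 30.9 and 24.6, then 401, 283 and 53.9, then 9675, 8631 and 5703, with steps of 2.14 and 5.25. Its osmotic arrays were widely spread, with an SD of 1.37 on the log2 scale, and replicate 3 lay just above the intact arrays. AT5G08240 gave 12.3, 30.1 and 2.85, then 228, 195 and 67.4, then 4579, 4583 and 3194, with steps of 2.48 and 4.65. Its intact signal was near background, and its osmotic step was 3.64 with 1 added and 1.46 with 64. AT1G05575 had the smallest share of its difference in the first step (with 64 added before the logarithm, AT5G57510 had), with osmotic arrays at 96.8, 88.2 and 108, between intact arrays at 65.1, 32.1 and 27.3 and protoplast arrays at 5545, 6759 and 3153. Its steps were 1.04 and 5.44.

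AT1G22810 was among the dimmest in intact cells, at 3.44, 2.11 and 7.31, with 108, 154 and 28.0 in osmotic cells and 5272, 5228 and 1671 in protoplasts. For such a member the size of a step depends on the 16 added before the logarithm: its whole difference was 7.48 with 16, 9.53 with 1 and 5.74 with 64. An intact mean under 16 was found for 16 members, and no detection calls were used, so signal this dim could not be told from background. On their own arrays, 108 members were below the array median on all 3 intact arrays, 34 on all 3 osmotic arrays and 1 on all 3 protoplast arrays. Above the array median on all 3 arrays were 65, 136 and 194 members in intact cells, osmotic cells and protoplasts. The brightness of a probe set also depends on its probes, and array medians ran from 144.9 to 162.8 in intact and osmotic cells and from 115.7 to 131.0 in protoplasts.

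**Figure D2:**
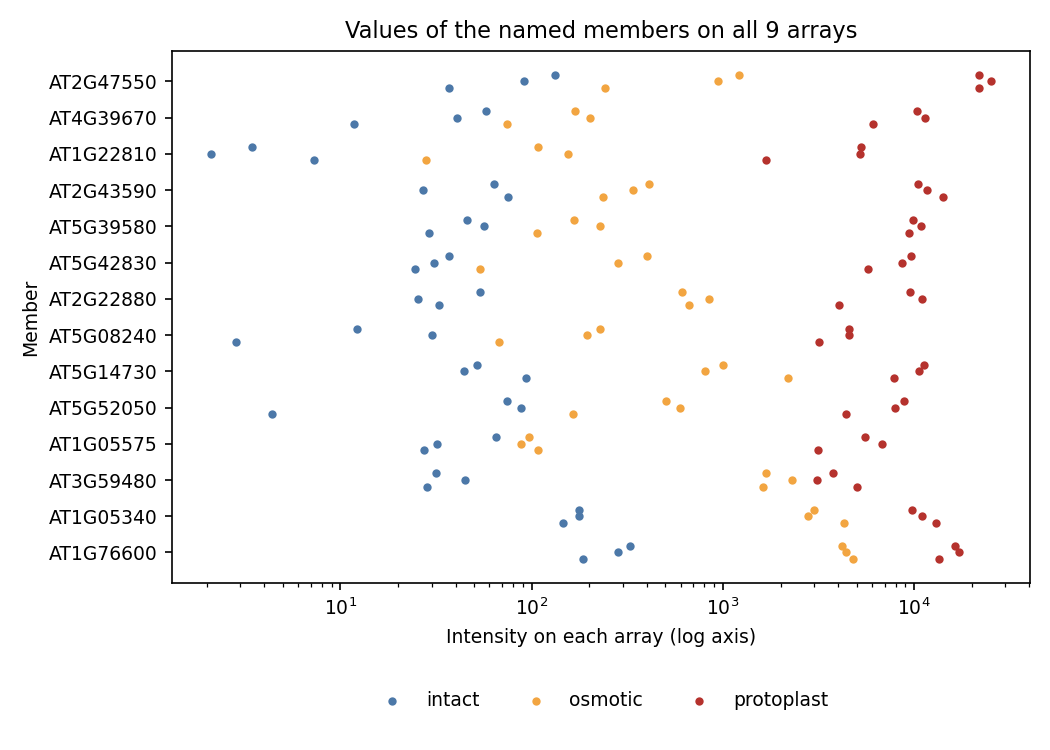
Points are the intensities on each of the 9 arrays, on a log axis, for 14 members, namely AT5G52050 and those with the largest whole differences or steps. The 3 groups do not overlap in any of them, and the osmotic arrays of AT3G59480 lie close below its protoplast arrays while those of AT1G05575 lie close above its intact arrays.

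A smaller set had most of its difference in mannitol medium already. AT3G59480 read 31.7, 45.0 and 28.5 in intact cells, 1687, 2305 and 1619 in osmotic cells, and 3765, 3087 and 5009.7 in protoplasts. Its osmotic step of 5.20 was the largest of all members, a ratio of group means of 53.3, against a protoplast step of 1.06 that only just met the bound. AT1G05340 read 176, 176 and 146, then 2979, 2794 and 4319, then 9789, 11037 and 13011, with steps of 4.19 and 1.76. AT1G76600 read 328, 282 and 185, then 4214, 4395 and 4793, then 16335, 17070.4 and 13426, with steps of 4.03 and 1.80. In both, the osmotic arrays were separated from the intact arrays by wide margins: the gaps between the nearest arrays were 3.87 and 3.62 on the log2 scale. More than 60% of the whole difference fell in the first step for 16 members, and less than 20% for 5.

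Other members combined large steps of similar size. AT2G22880 read 53.9, 25.6 and 32.6 in intact cells, 609, 843 and 667 in osmotic cells, and 9468, 10997 and 4056 in protoplasts. Its steps of 3.78 and 3.39 made it the member with the largest smaller step on this scale, an order that changed when 1 or 64 was added in place of 16. AT5G14730 read 51.9, 44.2 and 93.3, then 999, 809.5 and 2192, then 11324, 10570.1 and 7866, with steps of 4.01 and 3.00. Replicate 3 was its highest osmotic array, where most members had their lowest. AT1G23710, with steps of 3.25 and 3.49, AT5G24570, with 3.17 and 3.71, and AT3G17110, with 2.91 and 2.85, completed the 5 members with the largest smaller step, and these 3 were named after their values were seen. The efflux carrier gene AT5G52050 (DTX50) read 74.2, 87.9 and 4.36 in intact cells, 505, 596 and 165 in osmotic cells, and 8837, 7914 and 4388 in protoplasts, with steps of 2.75 and 4.13. The third array was the lowest in each of its groups, and the groups did not overlap.

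**Figure D3:**
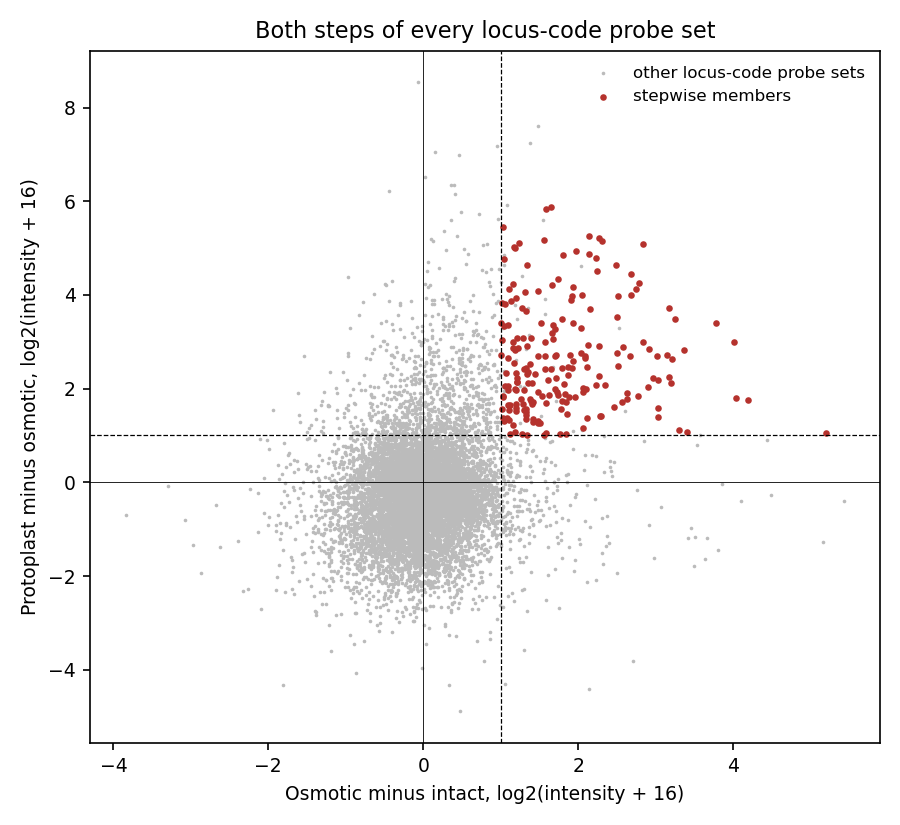
Each point is a locus-code probe set, with the osmotic minus intact difference on the horizontal axis and the protoplast minus osmotic difference on the vertical axis, both in log2(intensity + 16), dashed lines at 1 and members in red. The 199 members fill the upper right corner, most of them with a vertical value larger than the horizontal one, and grey points in that corner are the 38 probe sets whose arrays overlapped.

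The members can be set beside the locus-code probe sets that met only 1 of the steps. The osmotic step, with no overlap, was met by 429 of the 11933 locus-code probe sets, or 3.6%, and 199 of these 429, or 46.4%, were members. Of the same 429, 204 were at least 2-fold higher in protoplasts than in osmotic cells, the members and a few whose arrays overlapped there. A further 62 were at least 2-fold lower and 163 differed by less than 2-fold. The protoplast step, with no overlap, was met by 1134 locus-code probe sets, or 9.5%, of which the members were 17.5%. Of these 1134, 230 were at least 2-fold higher in osmotic than in intact cells, the members and others whose arrays overlapped there. A further 880 differed by less than 2-fold and 24 were at least 2-fold lower in osmotic cells. In the opposite direction, 111 locus-code probe sets were lower at both steps under the same bounds. The osmotic arrays enter both steps with opposite sign, so these counts are not independent of each other.

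Among probe sets with a gene symbol other than a locus code, 43 of 1580, or 2.72%, met the same conditions. The gene table gave no role for nearly all members, whereas roles are known for some of these 43. They include GSTU22 and GSTU25, glutathione transferases that conjugate reactive compounds, UGT73B4, UGT73B5, UGT85A2 and UGT87A2, which attach sugars to small molecules, and XTH18 and XTH19, which cut and rejoin wall xyloglucan. CCR2 and HCT of monolignol synthesis, the immune transcription factor WRKY22, the ubiquitin ligases PUB22 and PUB23, the calmodulin-like CML38 and CML42, the autophagy proteins ATG8E and ATG8H, and the endoplasmic reticulum stress factor BZIP60 were also among them. Their steps had medians of 1.61 and 2.52, beside 1.65 and 2.41 in the members, and the protoplast step was the larger in 29 and the osmotic step in 14. The steps of GSTU25 were 2.56 and 5.29, beside 2.31 and 5.16 in the member AT2G43590, and LTI30, a dehydrin that accumulates in water-stressed cells, had steps of 4.68 and 1.74 beside 4.19 and 1.76 in AT1G05340. No test was made of the difference between the members and these genes, which were chosen on the same values.

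**Figure D4:**
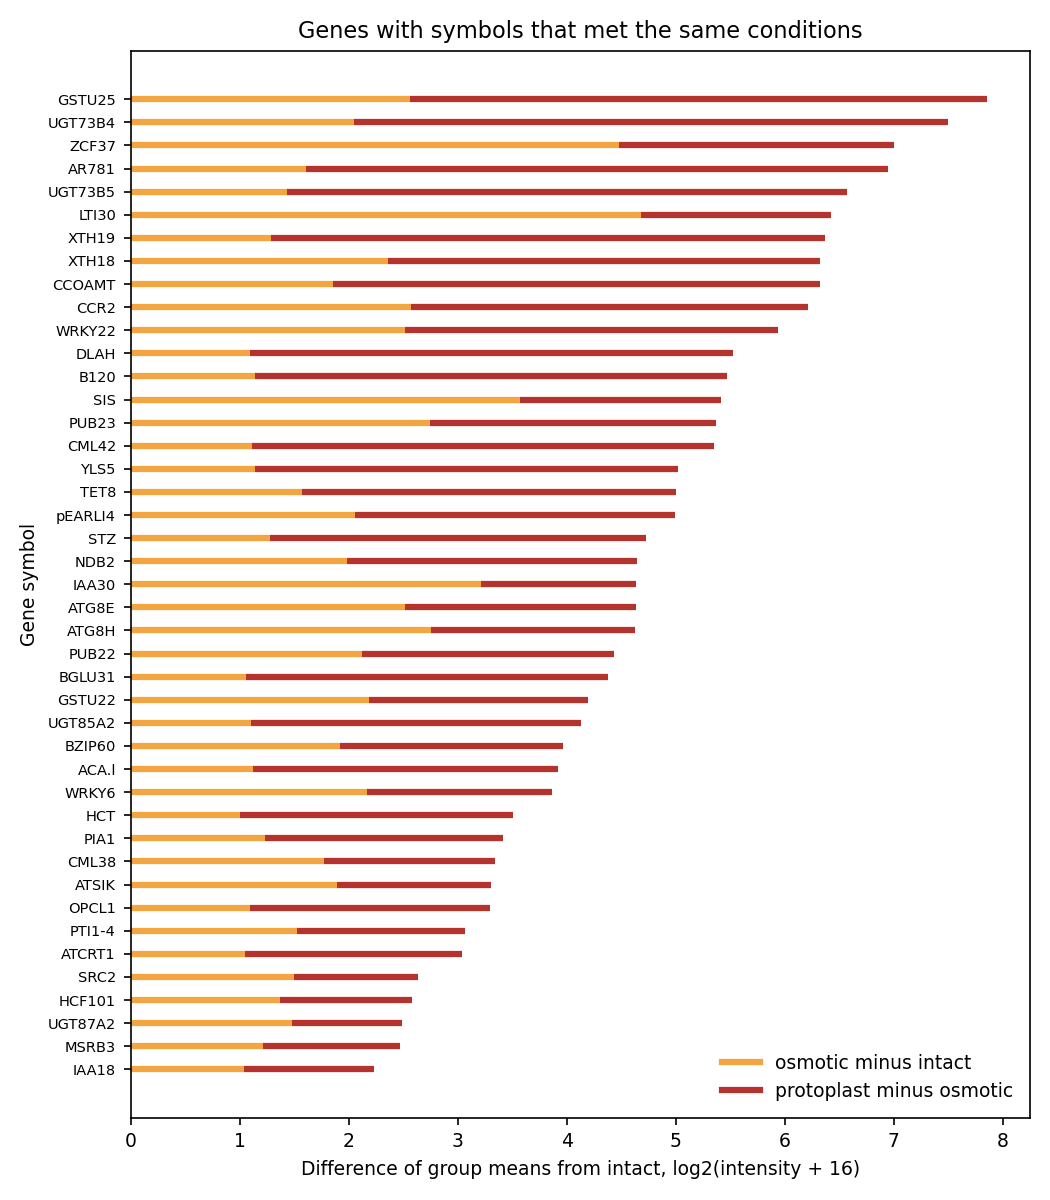
Bars show the osmotic step in orange followed by the protoplast step in red, in log2(intensity + 16), for the 43 probe sets with a gene symbol that met the same conditions. They are ordered from GSTU25, with steps of 2.56 and 5.29, to IAA18, with steps of 1.04 and 1.19.

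The bounds of the choice cut through a continuous range. Just inside were AT5G18490, with an osmotic step of 1.00 and arrays at 73.0, 39.3 and 54.0 in intact cells against 169, 123 and 91.8 in osmotic cells, AT3G09830, with 1.00, and AT4G20470, with a protoplast step of 1.01. AT4G34150 lay just outside with an osmotic step of 0.99 beside a protoplast step of 2.29, as did a second probe set of AT1G23440, with 0.98 and 1.28, and AT4G28300, with 1.01 and 0.98. A further 38 probe sets met both 2-fold steps but had overlapping arrays, 33 of them at the first step and 7 at the second. Without osmotic replicate 3, 29 of these 38 had no overlap. The narrowest gaps between intact and osmotic arrays among members were 0.03, in AT5G57510 and AT4G28150, and the median gap was 0.82 at the first step and 1.64 at the second.

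The third arrays were low for the members in every group, although not for probe sets at large. Relative to their group means, the members had median deviations of -0.20 in intact, -0.27 in osmotic and -0.25 in protoplast replicate 3, on the log2 scale, against 0.11 to 0.18 on the other 6 arrays. The same medians over all 13513 single-gene probe sets were 0.01, -0.05 and 0.07 on the third arrays. The third array was the lowest of its group in 127 members in intact cells, 132 in osmotic cells and 135 in protoplasts. Shares over all probe sets are not given for these single groups, and the condition on overlap acted on the same values. In all 3 groups the third array was the lowest in 69 members, or 34.7%, compared with 1033 locus-code probe sets, or 8.66%. This is not particular to the members. Some genes with symbols that met the same conditions, such as CCR2 and PUB22, were also lowest there in all 3 groups. Others, such as LTI30, were not, and their share was not computed. AT2G38870, at 2294, 2008 and 452 in intact cells and 15007, 13352 and 5967 in osmotic cells, was low on replicate 3 of both groups, but its protoplast arrays were 24712, 28747 and 30704. AT5G12420 went the other way, with the third array the highest at 12.8 beside 0.961 and 5.55, 274 beside 20.2 and 52.7, and 1063 beside 471 and 405. The labels give nothing that sets replicate 3 apart. With replicate 3 of every group left out, an alternative added after seeing the data, 274 locus-code probe sets met the conditions, 176 of the members among them. Without osmotic replicate 3 alone, 267 met them. Fewer arrays make the absence of overlap easier to meet, so these counts do not measure an effect of the third arrays.

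**Figure D5:**
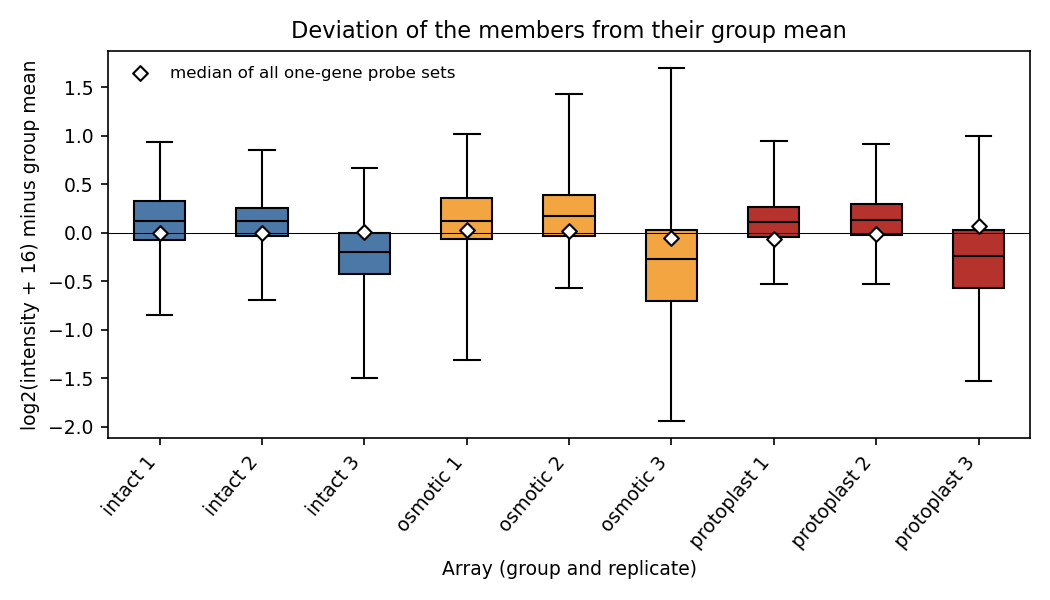
Boxes give the quartiles and median, and whiskers the full range, over the 199 members of log2(intensity + 16) on each array minus the mean of its group, and white diamonds the median over all single-gene probe sets. The boxes of the arrays numbered 3 have medians of -0.20, -0.27 and -0.25, while the diamonds stay between -0.06 and 0.07.

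Within each replicate number the steps were of much the same size. The members' median osmotic step was 1.67, 1.67 and 1.54 between arrays numbered 1, 2 and 3, and their median protoplast step 2.37, 2.42 and 2.46. Every member was higher in the osmotic array than in the intact array of the same number, as the absence of overlap requires. Spread within groups was uneven among members: the SD over osmotic arrays had a median of 0.37 on the log2 scale, compared with 0.26 over all locus-code probe sets, and reached 1.74 in AT3G48650. An osmotic SD of at least 1 was found in 24 members, and in 22 of them replicate 3 was the lowest osmotic array. AT1G74360 was such a case, with 615, 704 and 159.9 in osmotic cells beside 121, 153 and 131 in intact cells, and 7001, 6532 and 2007 in protoplasts. At the other end, 7 members had an SD under 0.2 in every group. AT3G16940 read 223, 257 and 228, then 680.2, 754 and 636, then 1673, 1618 and 1775, with steps of 1.49 and 1.27. AT4G24160 read 358, 338 and 322, then 1089, 1007 and 1218, then 5314, 6052 and 6584, with steps of 1.65 and 2.42. These members were named after their values were seen.

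The brightest members approached the top of the arrays. A protoplast mean over 20000 was reached by 6 members, AT2G47550, AT5G35735, AT2G41730, AT2G38870, AT2G43620 and AT5G16010, while the highest intensity of any probe set on an array ran from 26358 to 31984. AT5G35735 read 1018, 887 and 1088 in intact cells, 4616, 4684 and 3616 in osmotic cells, and 26258, 30768 and 27130.1 in protoplasts. On protoplast replicate 3, AT2G38870 at 30704 was itself the brightest probe set. Whether its protoplast step of 1.39 was limited by the range of the scanner was not tested.

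The members were spread over the nuclear chromosomes, with 51, 26, 37, 29 and 56 on chromosomes 1 to 5, or between 1.32% and 2.08% of the locus-code probe sets of each. In the gene order of TAIR10.1, 4 pairs of members lay within 5 genes of each other, and the number to expect was not computed. The adjacent genes AT2G32020 and AT2G32030 had the steps in opposite proportion. AT2G32020 read 110.3, 85.2 and 106 in intact cells, 1481, 1411 and 682 in osmotic cells, and 3367, 2581 and 1743 in protoplasts, with steps of 3.30 and 1.12, while AT2G32030 had steps of 1.66 and 3.19. AT2G43590 and AT2G43620, 5 genes apart, had 2.31 and 5.16 against 2.63 and 1.77. In the second adjacent pair, AT4G20460 had steps of 1.17 and 2.55 and AT4G20470 of 1.34 and 1.01, but their annotated positions overlap and AT4G20470 was dim, at 73.5, 105 and 106 in protoplasts. The last pair, AT3G06760 and AT3G06780, had steps of 1.32 and 1.35 against 1.31 and 1.53. Members also lay next to genes with symbols that met the same conditions: AT1G43000, at 89.2 ± 45.1, 787 ± 144 and 3658 ± 769 (SD, n = 3), is adjacent to BZIP60, and AT2G38870 to YLS5.

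By annotation, 195 members were protein-coding and 4 were pseudogenes, or 2.01%, compared with 993 pseudogenes, or 8.32%, among the locus-code probe sets. The conditions leave out probe sets that are dim in every group. The lowest protoplast mean of a member was 94.8, against a median of 87.1 over the locus-code probe sets. Whether brightness accounts for the lower share of pseudogenes was not tested. The transcribed pseudogene AT3G17110 read 23.0, 16.6 and 52.8 in intact cells, 245, 249.6 and 523 in osmotic cells, and 2361, 3013 and 1939 in protoplasts. AT3G48650, also a transcribed pseudogene, read 7.77, 8.57 and 1.09, then 168, 331 and 17.7, then 1296, 1281 and 502. AT5G28430 and AT3G29220, annotated as pseudogenes without that qualifier, had steps of 2.29 and 1.41 and of 1.62 and 1.87. A pseudogene probe set can bind transcripts of a related gene, and the probe set of AT5G28430 carries the suffix by which the maker marks probes shared between transcripts, so its signal cannot be assigned to that locus alone. AT2G41730 and AT5G37230 carry the suffix for probes that may bind unrelated transcripts. Genes of the members had a median length of 1838 bases in RefSeq, against 2090.0 over the locus-code probe sets.

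Over the single-gene probe sets, which are a part of the array, limma called 481 of 13513 higher in osmotic than in intact cells, 3.56% of those tested. It called 497, 3.68%, lower (adjusted p under 0.05). Between protoplasts and osmotic cells it called 1786 higher, 13.2%, and 3455 lower, 25.6%. Both higher calls were made for 264 probe sets, 1.95%. Of the members, 151 were among the first calls and 197 among the second, with 149 among both, counts that the choice of members fixes in large part and from which nothing is read. The next counts are all for osmotic against intact cells, the first comparison. Fits that dropped intact replicate 1, 2 or 3 made 241, 260 and 278 higher calls. Those that dropped osmotic replicate 1, 2 or 3 made 263, 204 and 517, and dropping protoplast replicate 3 gave 630. In the same order there were 185, 186, 221, 242, 159, 382 and 709 lower calls. With replicate 3 of every group left out there were 838 higher and 628 lower calls. After centring each array on its median, the second comparison gave 2756 higher and 2395 lower, in place of 1786 and 3455. That centring raised the median protoplast step of all single-gene probe sets from -0.14 to 0.17. Relative to the median of all, the members' own median protoplast step was 2.55, a value that centring cannot change by its construction, and 2.41 with quantile normalization. The class that holds DTX50 has 25 probe sets whose symbol or synonyms contain a transporter word. Of these, 2 were called higher and 1 lower in the first comparison and 9 and 4 in the second. Such words were rare, and 13057 of the 13513 probe sets fell in no class, so the 25 do not stand for all transporters. As a check on the cell line, the root hair genes EXPA7 and EXPA18 and the guard cell gene FAMA had group means between 9.88 and 33.8, and the secondary wall gene GUT2 between 93.6 and 109. The other 16 markers chosen for differentiated cell types were not analysed here, since the annotation used lists no single-gene probe set for them. The array may still carry probes for them.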

How the data were processed

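The authors deposited 1 intensity, not log-transformed, for each probe set on every array. The values show that the authors' processing scaled each array by 1 factor to a trimmed mean of 500, leaving out the top and bottom 2%, without making the distributions equal. No source used here names the summarising software. Of 22810 probe sets, 13513 had 1 gene symbol in the array annotation, 11933 of them a locus code, and 503 had several. The remainder had no gene symbol there, so neither the members, the genes with other symbols nor the limma counts cover them. A RefSeq gene table of TAIR10.1 supplied biotype, length and gene order.

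The scale used throughout was log2(intensity + 16), on which differences of dim genes come out too small. The members and lists were chosen with earlier results of these data known. For the array-wide counts, all 9 arrays entered 1 model in limma 3.58.1 (R 4.3.3) over every single-gene probe set, with Benjamini-Hochberg adjustment per comparison. The model was tested on simulated data in which every array was drawn independently, so that test did not cover the links between arrays given below. Other steps used Python 3.11.15, pandas 2.3.3, numpy 2.4.6 and matplotlib 3.10.9. All-array values were given for the 8 members with the largest whole difference, the 5 with the largest of each step and up to 3 per gene class; classes came from words in the gene table. Others were chosen after their values were seen. Same-numbered osmotic and protoplast arrays deviated together from their group means (r = 0.19, 0.12 and 0.32 over probe sets), a link seen in the data only, since the labels give no shared batch; osmotic 1 with protoplast 2 and osmotic 2 with protoplast 1 reached 0.15 and 0.14, so replicate 2 did not match its own number best. Alternatives were pseudocounts of 1 and 64, quantile normalization, median centring, leaving out the dimmest 40%, the brightest probe set per gene, no condition on overlap, a replicate block, fits to the groups compared, each array left out, and, added after seeing the data, the 3 arrays numbered 3 left out. Promoter motifs were planned and not analysed here. With 3 arrays a group, their number limits precision, and p-values cover the spread between these cultures only.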

Additional observations from a re-analysis of the deposited data

How the results depend on the processing

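The number of members moved by less than 1.5 times under every alternative tried: 227 and 146 with pseudocounts of 1 and 64, 192 with quantile normalization (183 of the 199 among them), 221 with median centring, 237 with no condition on overlap, and between 189 and 267 without single arrays, the 267 without osmotic replicate 3. Leaving out replicate 3 of every group gave 274, of which 176 were members, but fewer arrays make the absence of overlap easier to meet. For the fixed 199 members, the median osmotic step was 1.3 with a pseudocount of 64 and lay between 1.54 and 1.83 without single arrays. The median protoplast step was 2.71 with median centring and between 2.23 and 2.52 without single arrays.

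Calls in osmotic against intact cells depended more on the processing. Higher calls numbered 304 with a pseudocount of 1, 838 without replicate 3 of every group, and 204 to 630 without single arrays. Lower calls numbered 215 and 820 with pseudocounts of 1 and 64, 763 without the dimmest 40%, and 159 to 709 without single arrays. The cause was not tested, except that fewer arrays or fewer probe sets entered some fits. In protoplasts against osmotic cells, median centring gave 2756 higher calls. With the replicate block, 563 were higher and 567 lower in the first comparison and 1878 and 3618 in the second. Same-numbered intact and osmotic arrays had deviations correlated at 0.10, 0.17 and 0.31, but intact replicate 1 correlated best with osmotic replicate 2. Signal near background limits the steps of the dimmest members.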

Other observations

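Probe sets other than the member's own read 4 of the member genes, and they did not all repeat the stepwise pattern. A second single-gene probe set of AT5G52580 gave 460.4, 423 and 459 in intact cells, 729.5, 734 and 936 in osmotic cells, and 2197, 2137 and 1909 in protoplasts. Its steps were 0.81 and 1.37, in the same order of groups as the member probe set with 1.18 and 1.07. A probe set shared by AT2G32190 and AT2G32210 had steps of 3.36 and 3.34, beside 2.14 and 4.86 for the member probe set of AT2G32190. A probe set shared by AT4G20830 and AT4G20840 read 142, 149 and 212 in osmotic cells, below each of its intact arrays at 329, 365 and 214. Its osmotic step was -0.78 and its protoplast step 2.88, whereas the member probe set of AT4G20830 had 1.85 and 1.03. Which of the paired genes a shared probe set reads was not tested.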
